A study of Mus musculus with 9 samples.

Results

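The genes of the mitochondrial respiratory chain and of the ATP synthase were followed through 109 gene IDs, of 32933 that either of the deposited gene lists holds. They were taken by symbol: every gene named mt-Nd, mt-Co, mt-Cytb or mt-Atp, every gene whose symbol opens with Nduf, Uqcr or Atp5, the genes Sdha to Sdhd, and the Cox genes numbered from Cox4 to Cox8. Of these, 96 are encoded in the nucleus and 13 in the mitochondrial genome. By the enzyme they belong to, 52 were assigned to complex I, 4 to complex II, 9 to complex III, 23 to complex IV and 21 to complex V. The 52 of complex I include 8 assembly factors, which build the enzyme without staying in it. Ndufa4 and Ndufa4l2 were counted with complex IV, where their proteins are now placed. Members listed under an older or newer symbol in 1 of the 2 lists, such as Atp5s and Dmac2l, were joined by gene ID. After the filter on low counts, 103 of the 109 were tested (90 nuclear and 13 mitochondrial) among 14620 genes.

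The cells were NIH3T3-CG, a fibroblast line from mouse embryos, exposed to SAG, an agonist of Smoothened that turns Hedgehog signalling on. Experiment 1 has 1 library each at 0, 17 and 30 h in SAG, and its labels do not mention Dox, so it is taken as without Dox. Experiment 2 has 1 library each at 0, 19 and 30 h without Dox and at 0, 19 and 30 h with Dox, and the labels do not say what Dox acts on in these cells or when it was added. All 9 libraries come from the same line and the same 3' kit of 10x Genomics, which counts each captured RNA molecule once by a unique molecular identifier (UMI). The labels do not say whether the libraries came from separate cultures. The p-values given here rest on how much the libraries differ among themselves, and that spread may be technical. Where responses to SAG are compared, only part of the 9 libraries supply that spread, as said there.

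The respiratory chain sits in the inner mitochondrial membrane. Complex I takes electrons from NADH and complex II takes them from succinate, both hand them to coenzyme Q, complex III passes them to cytochrome c and complex IV to oxygen. Complexes I, III and IV pump protons while they do so, and complex V, the ATP synthase, lets the protons flow back to make ATP. The mitochondrial genome encodes the membrane-buried core of complexes I, III, IV and V, and every other subunit, all of complex II included, is made from nuclear genes and imported, so that the enzymes need RNA from both genomes.

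Barcodes with at least 5000 UMIs numbered 931 to 9301 per library and held 33342168 to 148613246 UMIs. Experiment 2 without Dox at 19 h had 9301 of them at a median of 8155 UMIs, against medians of 26546 to 46944 in the other 8 libraries. Any pair of libraries shared 0 to 21 barcodes, at most 0.537% of the smaller library. The fibroblast genes Col1a1 (215 to 477 CPM, that is UMI counts scaled to a common library size) and Pdgfra (66.6 to 144) were present throughout, and most genes of other cell types were at or near 0. Of these, Epcam reached 0.0446, Ptprc 0.0895, Kdr 0.0223, Ckm 0.0251, Adipoq 0.00735 and Hbb-bs 0 CPM in the library where each was highest, while Cd68 reached 11, Des 4.6 and Cd14 4.42. Barcodes were not limited by their mitochondrial share in the values below unless said, because that share is the summed count of the 13 mitochondrial members. In the sum of a library, fewer cells with a transcript and less of it per cell cannot be told apart.

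The mitochondrial genome is read as long RNAs that are cut into single messages, except for a few neighbouring genes that stay joined or overlap. The stretches below are shown because mt-Atp8, mt-Nd4l and mt-Nd6, the members with the largest differences below, each overlap a neighbour. They are the reference sequence of GRCm38, plus strand, 5′ to 3′, with the bases that belong to both genes in capitals, and 12 bases of flank on each side.

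mt-Atp8 and mt-Atp6, 43 shared bases (chrM:7927-7969 in the window chrM:7915-7981): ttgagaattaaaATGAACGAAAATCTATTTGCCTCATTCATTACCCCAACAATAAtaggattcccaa
mt-Nd4l and mt-Nd4, 7 shared bases (chrM:10167-10173 in the window chrM:10155-10185): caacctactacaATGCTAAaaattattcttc
mt-Nd5 and mt-Nd6, 14 shared bases (chrM:13552-13565 in the window chrM:13540-13577): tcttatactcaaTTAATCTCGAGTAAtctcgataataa

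In the first and second stretch both genes lie on the plus strand, so 1 message can hold both reading frames, and the poly(A) tail of such a message, which a 3' kit captures, lies beyond the second gene. In the third, mt-Nd6 lies on the minus strand, the only one of the 13 genes that does, and faces mt-Nd5. A use of strand in the counting is not given in the sources used here, so UMIs of mt-Nd6 and RNA from the opposite strand at its position cannot be told apart. The longest run of A, at which an oligo(dT) primer could also bind inside a message, was 5 bases in mt-Atp8, 4 in mt-Nd4l, 3 in mt-Nd6, 8 in mt-Nd2 and 7 in mt-Co1.

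The 13 mitochondrial genes took a large share of all RNA counted. Their share of all UMIs in Experiment 1 was 8.5, 10.1 and 9.58% at 0, 17 and 30 h. In Experiment 2 it was 10.0, 8.61 and 7.09% at 0, 19 and 30 h without Dox and 9.97, 8.36 and 9.39% with Dox. The 0 h libraries of Experiment 2 lay above that of Experiment 1, and at 30 h both lay below it. The 96 nuclear members took 2.43, 2.55 and 2.48% of the UMIs outside mt- genes (Experiment 1), 3.17, 3.03 and 2.78% (Experiment 2, no Dox) and 3.32, 2.9 and 2.87% (Experiment 2, Dox). All 6 libraries of Experiment 2 were above all 3 of Experiment 1 in this share, and within each arm of Experiment 2 the 0 h library was the highest. For each UMI of a nuclear member there were 2.74 to 4.41 mitochondrial UMIs, depending on the library. Because each molecule gives at most 1 UMI, these levels carry no length factor, but genes differ in how well their RNA is captured, and a level compares a gene with itself across libraries more safely than with another gene.

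**Figure D1:**
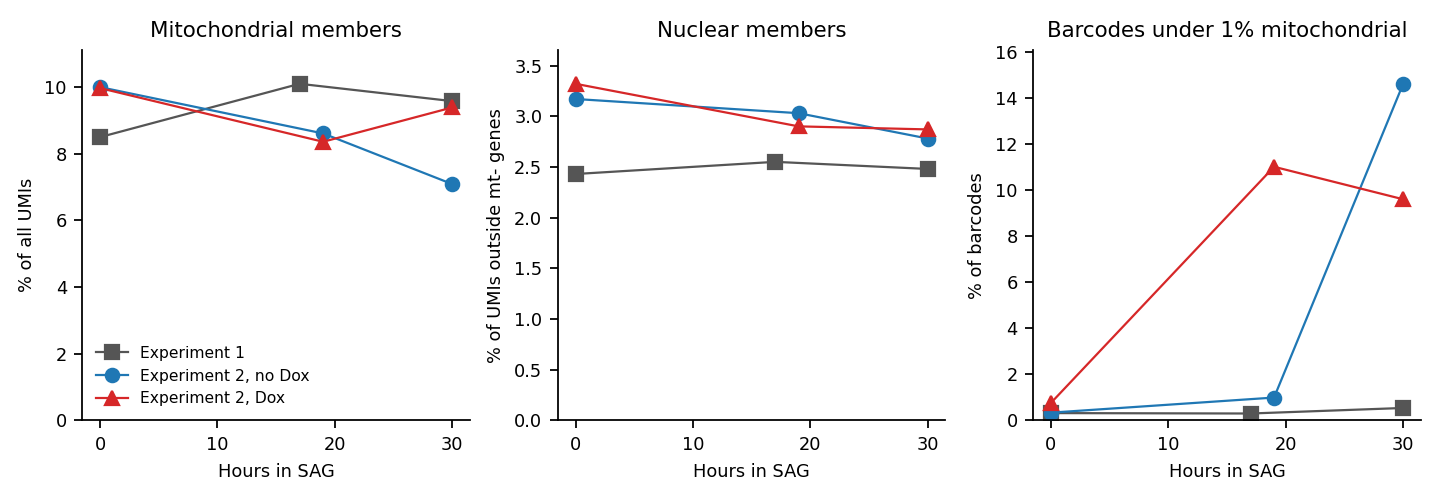
Share of UMIs in the 13 mitochondrial members (left, % of all UMIs), in the 96 nuclear members (middle, % of UMIs outside mt- genes) and share of barcodes with under 1% mitochondrial UMIs (right, % of barcodes), by hours in SAG. Each point is 1 library. The nuclear share of every Experiment 2 library lies above those of Experiment 1, and barcodes under 1% reach 14.6% at 30 h without Dox.

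The makeup of the mitochondrial RNA differed between the experiments. mt-Co1, the catalytic subunit of complex IV, gave 26.4, 25.6 and 26.8% of the UMIs of the 13 genes in Experiment 1 at 0, 17 and 30 h, but 14.4, 12.8 and 13.6% (Experiment 2, no Dox) and 13.6, 12.4 and 13.3% (Experiment 2, Dox). mt-Cytb, the only mitochondrially encoded subunit of complex III, went the other way, with 5.89, 5.81 and 5.61% (Experiment 1), 15.8, 14.1 and 10.3% (Experiment 2, no Dox) and 15.5, 11.5 and 10.4% (Experiment 2, Dox). No library of one experiment overlapped the other in either share. mt-Co3, also of complex IV, held 19.5, 18.9 and 18.6% in Experiment 1. In Experiment 2 it went from 13.1% at 0 h to 21.8% at 30 h without Dox and from 14.6% to 20.6% with Dox, and at 30 h it was the most abundant of the 13 in both arms. mt-Co2, mt-Atp6, mt-Nd1, mt-Nd2 and mt-Nd4, subunits of complexes IV, V and I, made up most of the rest, and mt-Atp8, mt-Nd3, mt-Nd4l, mt-Nd5 and mt-Nd6 each stayed at or under 1.6%.

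Levels below are CPM scaled with TMM factors, which offset differences in RNA makeup between libraries, given for 0, 17 and 30 h in Experiment 1 and for 0, 19 and 30 h in Experiment 2. The 2 most abundant nuclear subunits of each complex by mean level were read first. In complex I, Ndufb9, an accessory subunit, ranged over 414 to 925 and Ndufa13, an accessory subunit also known as GRIM-19, over 195 to 854. In complex II, Sdhb, the iron-sulphur subunit, ranged over 53.9 to 110.4 and Sdhc, which anchors the enzyme in the membrane, over 37.6 to 101. In complex III the hinge protein Uqcrh ranged over 699 to 1948 and Uqcrq over 202 to 848. In complex IV Cox8a ranged over 1204 to 2356 and Cox4i1 over 812 to 2219. In complex V Atp5h, of the peripheral stalk, ranged over 684 to 1483 and Atp5g2, a gene for the c-ring, over 572 to 1093. Complex II was the least abundant, at 0.015 to 0.0374% of the UMIs outside mt- genes for its 4 genes together.

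Several subunits of complex IV and the c-ring of complex V exist as alternative genes. The forms made in most tissues prevailed in these fibroblasts, and the forms known from muscle, lung or testis were low or near 0. Cox8b gave 0 UMIs in every library, which allows at most 0.0202 to 0.09 CPM depending on the library (counting error only). Cox8c gave 1 UMI in 1 library, Cox6b2 0 to 1 UMIs per library and Cox4i2, the form of lung and low oxygen, 1 to 10 UMIs. Cox7a1, the heart and muscle form, ranged over 0.0503 to 0.163 CPM against 278 to 644 for Cox7a2, Cox6a2 over 4.64 to 15.1 against 150.0 to 352 for Cox6a1, and Ndufa4l2 over 0.167 to 0.352 against 655 to 1584 for Ndufa4. Cox7b2, the testis form, ranged over 0.156 to 2.77 against 201 to 619.8 for Cox7b. Cox6b1, the common partner of Cox6b2, ranged over 297 to 909.7, and Cox7a2l, which helps to join complexes III and IV, over 554 to 758. Of the 3 genes for the c-ring protein, which share its mature sequence, Atp5g1 ranged over 237 to 705, Atp5g2 over 572 to 1093 and Atp5g3 over 160.1 to 293. Ndufb1-ps, listed for Experiment 2 only, ranged over 109 to 378 there and was not tested, and a second ID of Atp5o, listed for Experiment 1 only, had 0 UMIs. That second ID (chr16:91684398-91926982, minus strand) overlaps the tested Atp5o (chr16:91925214-91931687, minus strand). Whether the overlap changed the count of Atp5o in Experiment 1 was not tested.

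The promoters of the nuclear members were searched for 3 motifs that are known from genes of the respiratory chain, on both strands, in the 300 bases from 250 before to 50 after each start in the RefSeq table of GRCm38.p6, which held 78 of the 96. The core of the NRF1 site, CGCATGCGC, was in 10 of 78 members (12.8%) and in 1.95% of the 27025 genes of the table. The core of ETS factor sites, CCGGAAG, was in 19 (24.4%) against 9.93%, and the core of the YY1 site, AAGATGGC, in 11 (14.1%) against 3.19%. The last 3 letters of the ETS core are the first 3 of the YY1 core, so 1 stretch can hold both, and a full palindromic NRF1 site matches once on each strand. A match is a description of the letters and not a bound site. The promoters of 3 members that the results name are shown, with the matched bases in capitals. Atp5k and Uqcr11 hold NRF1 and ETS cores. Below, the response of Atp5k to SAG was lower in Experiment 2, and Uqcr11 was higher in Experiment 2. Sdhd holds an ETS core and fell at 30 h. Each is written 5′ to 3′ in the direction of its gene.

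Atp5k (chr5:108434350-108434649, minus strand): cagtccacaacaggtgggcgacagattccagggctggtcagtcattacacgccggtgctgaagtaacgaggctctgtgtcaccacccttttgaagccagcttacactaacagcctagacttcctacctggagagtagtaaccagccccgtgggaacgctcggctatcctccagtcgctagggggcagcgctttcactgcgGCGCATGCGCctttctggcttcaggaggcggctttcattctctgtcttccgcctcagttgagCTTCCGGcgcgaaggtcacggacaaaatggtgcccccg
Uqcr11 (chr10:80406772-80407071, minus strand): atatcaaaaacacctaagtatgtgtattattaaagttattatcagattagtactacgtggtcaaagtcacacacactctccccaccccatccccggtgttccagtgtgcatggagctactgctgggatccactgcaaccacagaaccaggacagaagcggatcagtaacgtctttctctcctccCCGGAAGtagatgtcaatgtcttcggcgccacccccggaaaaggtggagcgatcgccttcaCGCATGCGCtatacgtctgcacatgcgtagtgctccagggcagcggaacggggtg
Sdhd (chr9:50603800-50604099, minus strand): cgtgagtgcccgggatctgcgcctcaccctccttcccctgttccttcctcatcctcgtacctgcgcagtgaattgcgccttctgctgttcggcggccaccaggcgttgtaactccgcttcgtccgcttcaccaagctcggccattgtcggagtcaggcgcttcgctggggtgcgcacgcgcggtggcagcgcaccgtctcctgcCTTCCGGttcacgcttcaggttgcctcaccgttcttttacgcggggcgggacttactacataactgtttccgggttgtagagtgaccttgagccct

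The first comparison asks whether 30 h in SAG changed these genes. In a fit over all 9 libraries with SAG time, Dox and experiment as terms, 0 of the 103 members rose and 6 fell (edgeR quasi-likelihood F test, Benjamini-Hochberg adjusted p under 0.05 over 14620 genes). Of all genes tested, 2.79% rose and 4.97% fell, so 6 of 103 is near the share of all genes that fell. The 6 were mt-Atp8 and mt-Nd4l, the accessory subunits Ndufb3 and Ndufc2 of complex I, Sdhd of complex II and Atp5g3 of complex V. With barcodes above 10% mitochondrial UMIs removed, 3 nuclear and 1 mitochondrial member fell, beside 3.69% of all genes, and the adjusted p of Atp5g3 was 0.0501 and that of mt-Atp8 0.0511 (edgeR). Over all alternatives the adjusted p ranged over 0.00288 to 0.464 for Atp5g3 and 1.51e-06 to 0.464 for mt-Atp8.

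mt-Atp8 was at 40.1, 100.2 and 59.2 (Experiment 1), 975, 183 and 84.5 (Experiment 2, no Dox) and 685, 103 and 67.3 (Experiment 2, Dox). It encodes a small membrane subunit of the ATP synthase. Both 0 h libraries of Experiment 2 stood far above the other 7, and the 0 h library of Experiment 1 was the lowest of all 9. The log2 difference at 30 h was -2.57 ± 0.69, adjusted p = 0.0484. mt-Nd4l was at 112, 222 and 125 (Experiment 1), 1201, 324 and 131 (Experiment 2, no Dox) and 676, 164 and 124 (Experiment 2, Dox). It encodes a membrane subunit of complex I, and its 0 h libraries in Experiment 2 were again the 2 highest and its 0 h library in Experiment 1 the lowest. The log2 difference at 30 h was -2.07 ± 0.54, adjusted p = 0.0455.

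Sdhd was at 75.8, 62.1 and 53.7 (Experiment 1), 28.1, 25.3 and 18.4 (Experiment 2, no Dox) and 30.7, 19.2 and 18.8 (Experiment 2, Dox). Sdhd (chr9:50596357-50603812, minus strand) is the second membrane anchor of complex II. In each of the 3 arms the 30 h library was the lowest, and all of Experiment 2 lay below all of Experiment 1. The log2 difference at 30 h was -0.61 ± 0.13, adjusted p = 0.0321. Ndufc2 was at 181, 174 and 152 (Experiment 1), 261, 214 and 133 (Experiment 2, no Dox) and 217, 122 and 111 (Experiment 2, Dox). Ndufc2 (chr7:97400003-97407802, plus strand), an accessory subunit of complex I, was lowest at 30 h in each arm, with a log2 difference of -0.74 ± 0.19, adjusted p = 0.0439. Ndufb3 was at 150.0, 165 and 123 (Experiment 1), 231, 165 and 119 (Experiment 2, no Dox) and 216, 129 and 122 (Experiment 2, Dox). For Ndufb3 (chr1:58586384-58595964, plus strand), also of complex I, the 30 h library was lowest in each arm too, and the log2 difference was -0.70 ± 0.18, adjusted p = 0.0439. Atp5g3 was at 271, 260.4 and 214 (Experiment 1), 293, 248 and 160.1 (Experiment 2, no Dox) and 271, 173 and 168 (Experiment 2, Dox). For Atp5g3 (chr2:73908447-73911326, minus strand), of the c-ring, it was -0.64 ± 0.17, adjusted p = 0.0464, with the 30 h library lowest in each arm.

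The other members did not pass the test, and their values were mostly below 0. At 30 h 74 of 90 nuclear members and 12 of 13 mitochondrial members had a log2 difference below 0, against 7366 of 14620 genes. The median was -0.34 for nuclear and -0.48 for mitochondrial members, against 0.00 for all genes. Leaving out single libraries moved these medians. Without Experiment 1 at 0 h they were -0.54 and -0.77, and without Dox at 0 h the nuclear median was -0.19. Without Experiment 2 at 30 h without Dox the mitochondrial median was -0.24 and the nuclear one -0.23. All of these were still below 0. Scaling by library size only moved the median of all genes to 0.26 and that of nuclear members to -0.08, so that the difference between them, -0.34, was as with TMM (-0.33), but no member was called. By role, the medians relative to all genes were -0.38 for the 29 accessory subunits of complex I, 0.01 for its 7 nuclear core subunits, which carry the flavin and iron-sulphur centres, 0.12 for complex II, -0.25 for the 8 nuclear subunits of complex III, -0.38 for the 12 general subunits of complex IV, 0.12 for the 5 subunits of the catalytic F1 head of complex V and -0.41 for its 12 tested stalk and membrane subunits. The members with the smallest p on the other side of 0 were Uqcrc1, a core subunit of complex III (0.46 ± 0.18, adjusted p = 0.104), Sdha, the flavoprotein of complex II (0.37 ± 0.15, adjusted p = 0.123), and Atp5a1, the alpha subunit of the F1 head (0.40 ± 0.17, adjusted p = 0.139).

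At 17 to 19 h edgeR called 0 members, beside 0.0958% of all genes, with 0 members above and 7 below at an unadjusted p under 0.05, and DESeq2 called 0. The smallest p belonged to Sdhd (-0.37 ± 0.13, adjusted p = 0.336), mt-Atp8 (-1.75 ± 0.67, adjusted p = 0.361) and Cox6a2 (-0.56 ± 0.22, adjusted p = 0.378) below 0, and to Atp5a1 (0.26 ± 0.17, adjusted p = 0.587) and Sdha (0.21 ± 0.15, adjusted p = 0.626) above. Between 17 to 19 h and 30 h edgeR called 0 members beside 0% of all genes, with 0 members at an unadjusted p under 0.05, and DESeq2 called 0. The smallest p were those of Atp5g3 (-0.32 ± 0.17), Ndufb3 (-0.33 ± 0.18) and Ndufc2 (-0.34 ± 0.19) below 0, each with an adjusted p of 0.746, and of Uqcrc1 (0.28 ± 0.18, adjusted p = 0.746), Sdha (0.16 ± 0.15, adjusted p = 0.77) and Sdhc (0.21 ± 0.22, adjusted p = 0.785) above. The calls at 30 h depend on single libraries. They numbered 0 without Experiment 1 at 17 h, without Experiment 2 at 0, 19 or 30 h without Dox, and without Dox at 0 or 30 h, but 69 (5 higher and 64 lower) without Experiment 1 at 0 h and 35 (1 higher and 34 lower) without Experiment 1 at 30 h. More of all genes were called in these fits too, with 21.3% of genes higher and 20% lower in the first and 13.7% and 14.9% in the second, and in the fits with 0 members 0.0141 to 1.66% of all genes were called. At 17 to 19 h, 35 members (3 higher and 32 lower) were called without Experiment 1 at 0 h, beside 7.06% of all genes higher and 7.7% lower. The fit with no replicate block, that is without the experiment term, called 0 members and 0 genes at 30 h.

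The responses in the 2 experiments were therefore read side by side, and their difference was tested in a fit with a separate SAG effect for each experiment, a test added after these values were seen. From 0 to 30 h the 13 mitochondrial members had a median log2 difference of 0.31 (Experiment 1), -1.28 (Experiment 2, no Dox) and -0.56 (Experiment 2, Dox), and 13 of 13, 0 of 13 and 2 of 13 lay above 0. The 90 nuclear members had medians of 0.08, -0.61 and -0.53, with 29, 74 and 76 of 90 below 0, against medians of -0.01, 0.00 and 0.03 for all genes. Each arm of Experiment 2 has its own 0 h library.

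**Figure D2:**
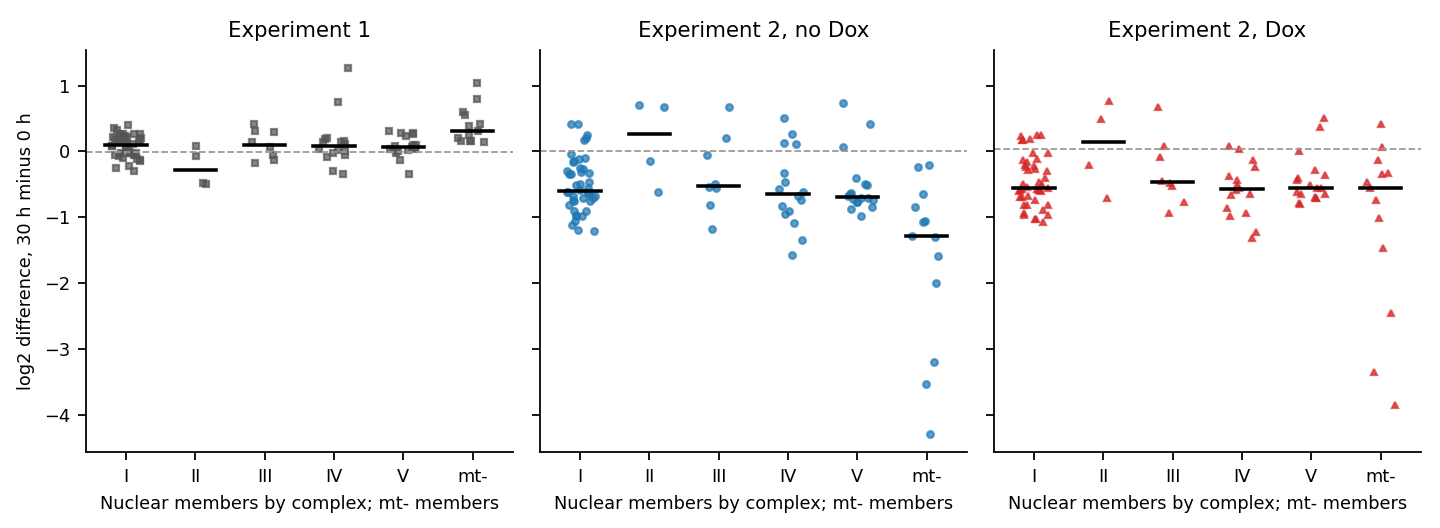
Log2 difference in TMM-scaled level between 30 h and 0 h in SAG for each tested member, by arm: nuclear members by complex I to V and the 13 mitochondrial members (mt-). Each point is 1 gene, the black bar is the group's median and the dashed line the median of all 14620 genes. The mitochondrial members lie above 0 in Experiment 1 and mostly below it in both arms of Experiment 2.

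The 30 h response in Experiment 2 was lower than in Experiment 1 for 7 of 13 mitochondrial and 21 of 91 nuclear members tested, and higher for 0 and 1 (edgeR, adjusted over 15123 genes), beside 5.78% of all genes lower and 7.11% higher. With the 10% limit on barcodes 9 mitochondrial and 35 nuclear members were lower and 2 nuclear members, Sdha and Sdhc, higher, beside 7.64% of all genes lower and 9.36% higher, also more than without the limit. The mitochondrial calls did not turn with the scaling: with library size only 9 of 13 were lower. The nuclear calls did, with 8 higher and 3 lower, beside 21.1% of all genes higher and 2.31% lower, where that scaling put the median of all genes at 0.53. Relative to it the nuclear median was -0.72 under either scaling.

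mt-Nd6 was at 43.2, 136 and 88.8 (Experiment 1), 249.8, 93.9 and 12.7 (Experiment 2, no Dox) and 136, 21.8 and 9.38 (Experiment 2, Dox). mt-Nd6, a membrane subunit of complex I, had its 3 lowest values in Experiment 2 at 19 h with Dox and at 30 h in both arms, and in Experiment 1 both later libraries were above 0 h. The difference between the responses, Experiment 2 minus Experiment 1, was -5.08 ± 0.38, adjusted p = 2.16e-13 (log2, edgeR). For mt-Atp8 it was -3.99 ± 0.32, adjusted p = 1.61e-12 and for mt-Nd4l -2.95 ± 0.33, adjusted p = 1.19e-08, from the levels given above. mt-Nd5 was at 390.4, 657 and 524 (Experiment 1), 1648, 835 and 416 (Experiment 2, no Dox) and 1296, 516 and 471 (Experiment 2, Dox). mt-Nd5, the largest mitochondrially encoded subunit of complex I, had its 2 highest values at 0 h in Experiment 2, and the difference was -2.12 ± 0.34, adjusted p = 2.11e-05.

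mt-Cytb was at 4313, 5308 and 4814 (Experiment 1), 22727, 15141 and 7542 (Experiment 2, no Dox) and 17152, 8135 and 8503 (Experiment 2, Dox). The level of mt-Cytb at 30 h was -1.59 (log2) from 0 h without Dox and -1.01 with Dox but 0.16 in Experiment 1, and the difference of responses was -1.43 ± 0.41, adjusted p = 0.017. mt-Nd2 (-1.37 ± 0.39, adjusted p = 0.0159) and mt-Nd1 (-1.30 ± 0.39, adjusted p = 0.0221), further subunits of complex I, passed as well. mt-Co3 was at 14310.0, 17236 and 15951 (Experiment 1), 18800.1, 18841 and 15918 (Experiment 2, no Dox) and 16179, 14239 and 16823 (Experiment 2, Dox). mt-Co3 did not pass (-0.23 ± 0.40, adjusted p = 0.757), and its 9 values lie close together. The other members that did not pass were mt-Co1 (-0.99 ± 0.41, adjusted p = 0.105), mt-Co2 (-1.01 ± 0.42, adjusted p = 0.1), mt-Atp6 (-0.72 ± 0.41, adjusted p = 0.243), mt-Nd3 (-0.68 ± 0.33, adjusted p = 0.176) and mt-Nd4 (-0.76 ± 0.38, adjusted p = 0.183).

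**Figure D3:**
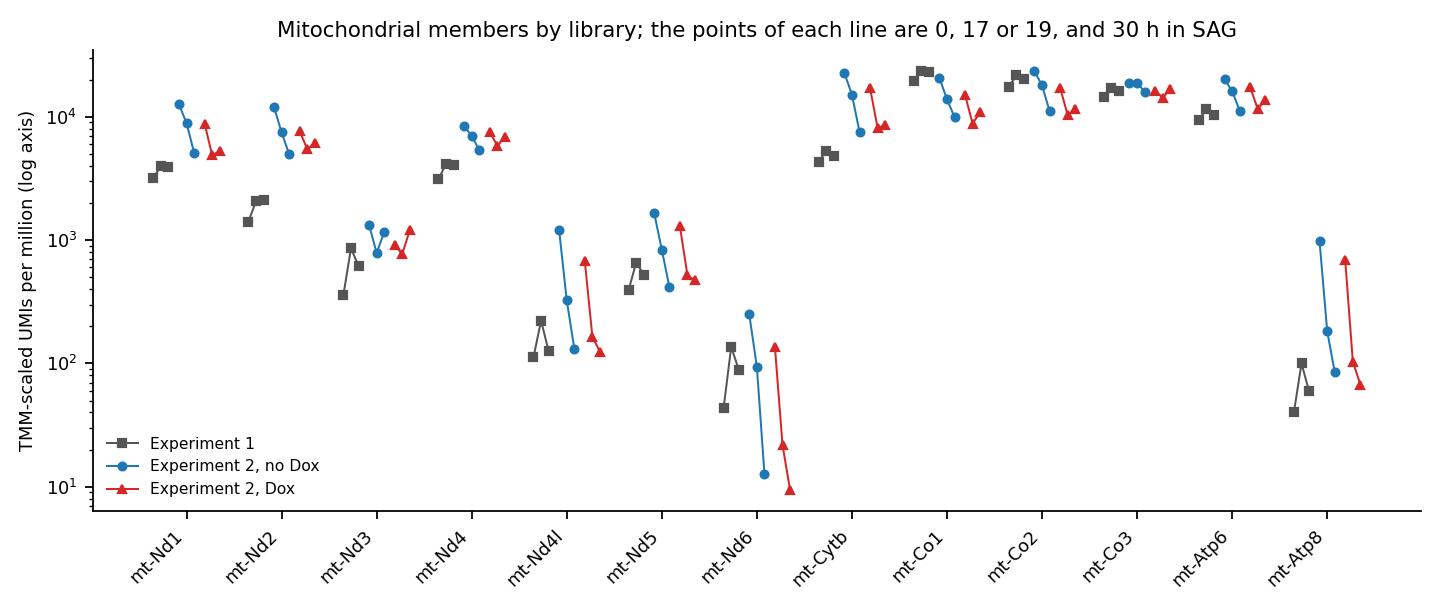
TMM-scaled CPM (log axis) of the 13 mitochondrial members in each library, with 1 line per arm whose points are 0, 17 or 19, and 30 h in SAG from left to right. In Experiment 2 mt-Nd6 goes from 249.8 to 12.7 without Dox and from 136 to 9.38 with Dox, while mt-Co3 ranges over 14239 to 18841 in the 9 libraries.

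Each overlapping gene was also set against its neighbour. Per 100 UMIs of mt-Atp6 there were 0.43, 0.862 and 0.569 UMIs of mt-Atp8 (Experiment 1), 4.86, 1.14 and 0.752 (Experiment 2, no Dox) and 3.96, 0.893 and 0.492 (Experiment 2, Dox). Per 100 UMIs of mt-Nd4 there were 3.62, 5.34 and 3.07 of mt-Nd4l (Experiment 1), 14.3, 4.65 and 2.45 (Experiment 2, no Dox) and 8.96, 2.85 and 1.8 (Experiment 2, Dox). Per 100 UMIs of mt-Nd5 on the opposite strand there were 11.1, 20.7 and 16.9 of mt-Nd6 (Experiment 1), 15.2, 11.2 and 3.06 (Experiment 2, no Dox) and 10.5, 4.22 and 1.99 (Experiment 2, Dox). These ratios do not depend on the scaling of the libraries. The first and second were highest at 0 h in both arms of Experiment 2. The third was lowest at 30 h in both of those arms, and in Experiment 1 it was lowest at 0 h.

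Among nuclear members the 5 lowest differences of response at 30 h were Cox7b2, a testis form of complex IV (-2.30 ± 0.74, adjusted p = 0.0319), Cox7c of complex IV (-1.43 ± 0.32, adjusted p = 0.00226), Ndufa5 (-1.34 ± 0.29, adjusted p = 0.00172) and Ndufb2 (-1.16 ± 0.29, adjusted p = 0.00585) of complex I, and Atp5e, the epsilon subunit of the F1 head (-1.12 ± 0.31, adjusted p = 0.0126). Cox7c was at 520.3, 720.3 and 559.9 (Experiment 1), 1775, 883 and 702 (Experiment 2, no Dox) and 1221, 544 and 489 (Experiment 2, Dox). Its 0 h libraries in Experiment 2 were the 2 highest and its 0 h library in Experiment 1 was the second lowest. Cox7b2 was at 0.156, 0.434 and 0.402 (Experiment 1), 2.77, 2.14 and 0.919 (Experiment 2, no Dox) and 1.93, 1.48 and 1.48 (Experiment 2, Dox), near the lower end of what was counted. The 1 member called higher, though not the only one above 0, was Sdhc (chr1:171127165-171150603, minus strand): 101, 72.3 and 72.9 (Experiment 1), 37.6, 49.8 and 60.2 (Experiment 2, no Dox) and 40.2, 55.9 and 68.7 (Experiment 2, Dox). It was highest at 0 h in Experiment 1 and lowest at 0 h in each arm of Experiment 2, and the difference was 1.21 ± 0.26, adjusted p = 0.00143. By role, 9 of 29 accessory subunits and 4 of 8 assembly factors of complex I were lower, 0 of its 7 nuclear core subunits, 2 of 8 in complex III, 3 of 17 in complex IV and 3 of 18 in complex V. Among the 7 core subunits the count at an unadjusted p under 0.05 was 1.

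At 17 to 19 h the response was lower in Experiment 2 for 5 mitochondrial and 15 nuclear members and higher for 1 nuclear member, Sdhc (0.94 ± 0.26, adjusted p = 0.0247), beside 2.51% of all genes lower and 2.31% higher. The mitochondrial members were mt-Atp8 (-3.88 ± 0.32, adjusted p = 7.47e-12), mt-Nd6 (-3.60 ± 0.36, adjusted p = 3.17e-09), mt-Nd4l (-2.93 ± 0.33, adjusted p = 3.1e-08), mt-Nd5 (-1.89 ± 0.34, adjusted p = 0.000329) and mt-Nd3 (-1.76 ± 0.34, adjusted p = 0.000672). The lowest nuclear members were Atp5k of complex V (-1.65 ± 0.30, adjusted p = 0.000354), Cox7c (-1.55 ± 0.32, adjusted p = 0.00189), Ndufa1 (-1.54 ± 0.28, adjusted p = 0.000351), Ndufa5 (-1.53 ± 0.30, adjusted p = 0.000763) and Atp5e (-1.46 ± 0.31, adjusted p = 0.00234). With library size only, 9 mitochondrial members were lower, and 7 nuclear members were higher and 9 lower, beside 7.25% of all genes higher and 1.53% lower. Both fits leave 2 residual degrees of freedom and compare times of 17 h and 19 h. They rest on 3 libraries of Experiment 1, none of which could be left out since each is the only one of its time. Those 3 libraries are fitted exactly, so the spread behind these p-values comes from the libraries of Experiment 2 alone. It does not cover variation within Experiment 1. The number called at 30 h was 6 without Dox at 0 h, 9 without Experiment 2 at 0 h without Dox, 6 without Experiment 2 at 30 h without Dox, 13 without Dox at 30 h and 76 without either one of the 19 h libraries. The share of all genes called went the same way, at 3.98, 7.55, 3.19, 8.07 and 29.8% in the same order against 12.9% with all libraries. For 17 to 19 h the number was 8, 9, 13 and 13 without the first 4, 67 without the 19 h library without Dox and 44 without that with Dox, beside 1.94, 2.53, 2.83, 2.87, 19.3 and 10.8% of all genes, against 4.81% with all libraries. The calls of mt-Atp8, mt-Nd6 and mt-Nd4l at 30 h held under 13, 13 and 13 of 13 alternatives.

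Other features of the libraries moved with these values. Ribosomal protein genes took 30.1, 33.5 and 33% of the UMIs outside mt- genes (Experiment 1), 46, 41.8 and 39.7% (Experiment 2, no Dox) and 40.0, 33.1 and 33.5% (Experiment 2, Dox), highest at 0 h in both arms of Experiment 2, as the nuclear members were. Malat1, a nuclear RNA, took 4.07, 4.85 and 4.4%, 3.59, 2.69 and 1.96% and 3.21, 3.22 and 2.7% in the same order. Barcodes with under 1% mitochondrial UMIs made up 0.315, 0.297 and 0.537% of barcodes (Experiment 1), 0.334, 0.989 and 14.6% (Experiment 2, no Dox) and 0.759, 11 and 9.59% (Experiment 2, Dox), and thinning each barcode to 5000 UMIs gave 0.236 to 14.5% over the 9 libraries. Over 10% mitochondrial UMIs were 26.5, 43.5 and 37.2%, 44.8, 29.9 and 25.9% and 45.6, 39.8 and 46.3% of barcodes. The part of these in the members' differences was not tested, apart from the limits on barcodes.

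Transcript length moved with the nuclear members' differences, an ordering looked for after the values were seen. Length here is that of the principal transcript in the annotation, the longest where there are several. Which transcript the cells made was not tested. From 0 to 30 h in Experiment 2 without Dox, the median log2 difference was -0.69 for the 32 members with a transcript under 700 bases, -0.63 for the 28 of 700 to 1200 bases and -0.13 for the 30 over 1200 bases. All nuclear genes tested had -0.73, -0.46 and 0.08 in the same classes, in the same order. With Dox the members had -0.57, -0.58 and -0.06 and all genes -0.57, -0.43 and 0.09. In Experiment 1 the members had 0.10, 0.10 and 0.03. Spearman's rho between length and difference across the 90 genes, which share their libraries and are not independent, was 0.40 without Dox, 0.39 with Dox and -0.15 in Experiment 1, and over 14590 nuclear genes 0.29, 0.26 and 0.03. From 0 to 17 or 19 h it was 0.46, 0.39 and -0.47 for the members and -0.01, 0.33 and 0.16 for all nuclear genes, so that in Experiment 1 the order was the opposite one, with a median of 0.26 for the members under 700 bases and -0.06 for those over 1200. Of the 30 members over 1200 bases by this rule, 18 were below 0 in Experiment 2 without Dox. At the low end were Ndufab1 (-1.21), Ndufb2 (-1.06), Atp5f1 (-0.76) and Atp5g1 (-0.76). The place of Ndufab1, Ndufb2 and Atp5g1 in this class rests on annotated transcripts of 3479, 4371 and 4715 bases. At the high end were Uqcrc1 (0.67), Sdhc (0.68), Sdha (0.70) and Atp5a1 (0.73), and the F1 subunits Atp5d (0.07) and Atp5b (0.42) lay between.

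**Figure D4:**
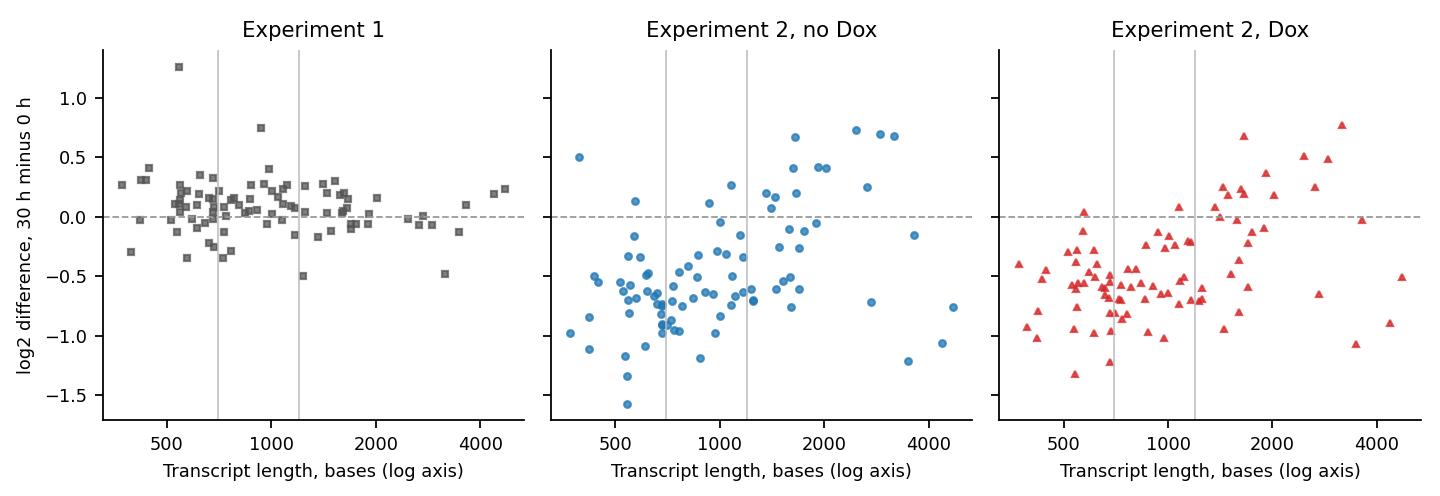
Log2 difference between 30 h and 0 h against transcript length (bases, log axis) for the 90 tested nuclear members, by arm. Each point is 1 gene, and grey lines mark 700 and 1200 bases. In both arms of Experiment 2 members under 700 bases lie mostly below 0, with medians of -0.69 and -0.57, and in Experiment 1 their median is 0.10.

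The second comparison, Dox against no Dox, found 0 members higher and 2 lower with Dox, beside 7.35% of all genes higher and 6.75% lower. The 2 were Ndufaf6 (chr4:11051045-11076205, minus strand), an assembly factor of complex I, and Ndufv2 (chr17:66078638-66101559, minus strand), a core subunit that carries an iron-sulphur centre. Ndufaf6 was at 16.8, 17.3 and 19.7 (Experiment 1), 17, 15.9 and 12 (Experiment 2, no Dox) and 11.9, 9.46 and 8.19 (Experiment 2, Dox). Each library with Dox was below the library without Dox at the same time in Experiment 2, and the log2 difference was -0.60 ± 0.16, adjusted p = 0.031 (edgeR). Ndufv2 was at 139, 117 and 129.8 (Experiment 1), 201, 227 and 168 (Experiment 2, no Dox) and 155, 128 and 133 (Experiment 2, Dox). Here too each library with Dox was below its partner at the same time, but Experiment 1 reached the same levels as the libraries with Dox, and the difference was -0.52 ± 0.15, adjusted p = 0.0477. Ndufv3, another complex I subunit, missed the threshold (-0.50 ± 0.15, adjusted p = 0.0505). Above 0 the smallest p were those of Ndufa4l2 (0.42 ± 0.31, adjusted p = 0.357), Ndufs1 (0.11 ± 0.12, adjusted p = 0.521) and Sdhc (0.16 ± 0.22, adjusted p = 0.642).

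With Dox 85 of 90 nuclear and 13 of 13 mitochondrial members had values below those without, against 7070 of 14620 genes. The median of the nuclear members was -0.39, but scaling by library size only put it at 0.01 and the median of all genes at 0.41, so that the sign rests on the scaling, and the position relative to all genes was -0.40 under either. That position rests in turn on the experiment term: with no replicate block, where Experiment 1 counts as further libraries without Dox, it was -0.02. The mitochondrial median was -0.34 with TMM and 0.06 with library size only, and it moved with single libraries, to -0.04 without Experiment 2 at 0 h without Dox, -0.17 without Dox at 19 h, -0.54 without Dox at 0 h and -0.65 without Experiment 2 at 30 h without Dox. Time by time, the nuclear median with Dox minus without was -0.27 at 0 h, -0.58 at 19 h and -0.21 at 30 h, and the mitochondrial median -0.47, -0.70 and 0.08. Libraries with Dox were made in Experiment 2 only. With the 10% limit on barcodes 0 members were called, beside 4.63% of all genes lower; the adjusted p of Ndufaf6 was then 0.0539 and that of Ndufv2 0.0662 (edgeR). Over all alternatives the adjusted p ranged over 0.00352 to 0.374 for Ndufaf6 and 0.00629 to 0.631 for Ndufv2. Leaving out Experiment 1 at 0 h gave 46 members lower, Experiment 1 at 30 h 10, Experiment 2 at 30 h without Dox 6 and Dox at 0 h 3, beside 16.1, 10.5, 7.22 and 5.63% of all genes lower. Leaving out Dox at 19 or 30 h, Experiment 1 at 17 h, or Experiment 2 at 0 or 19 h without Dox gave 0, beside 0.69 to 4.81% of all genes lower.

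Whether the 30 h response differed with Dox was tested as well. In this fit each library with Dox is fitted exactly, so the spread comes from the libraries without Dox. edgeR called 0 members, beside 0.119% of all genes, with 2 at an unadjusted p under 0.05, and DESeq2 called 0. The smallest p was that of mt-Nd6, with -2.07 ± 0.58, adjusted p = 0.169, followed by mt-Atp8 (-1.42 ± 0.59, adjusted p = 1) and Cox6a2 (-0.75 ± 0.41, adjusted p = 1). Above 0 they were Sdhc (0.70 ± 0.44, adjusted p = 1), Uqcrc1 (0.34 ± 0.45, adjusted p = 1) and Cox7b2 (0.38 ± 0.62, adjusted p = 1). Without Experiment 2 at 0 h without Dox 3 members, mt-Atp8, mt-Nd6 and mt-Nd4l, were called lower, beside 0.92% of all genes lower, a fit in which the 0 h level without Dox comes from Experiment 1 alone.

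The third comparison sets Experiment 2 against Experiment 1. Of the 90 nuclear members 57 were higher in Experiment 2 and 5 lower, and of the 13 mitochondrial members 5 were higher, beside 23.5% of all genes higher and 23.2% lower. With library size only, 36 nuclear members were higher and 15 lower, and 4 mitochondrial members higher and 2 lower, beside 10.7% of all genes higher and 40.9% lower, and the median of all genes was -0.45. The nuclear median relative to all genes was 0.71 with TMM and 0.73 without. The gene lists of the 2 experiments differ, with 31054 and 32286 features, and the files were written by different software versions. Depth differed too, with 33342168 to 38606786 UMIs per library in Experiment 1 and 72308901 to 148613246 in Experiment 2. Experiment, software, gene list and depth therefore cannot be told apart.

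The members with the largest rise were Cox7b2 (2.49 ± 0.43, adjusted p = 0.000943), Ndufa3 (2.01 ± 0.19, adjusted p = 2.57e-05), Ndufb2 (1.69 ± 0.25, adjusted p = 0.000379), Ndufv3 (1.63 ± 0.15, adjusted p = 2.21e-05) and Uqcr11 (1.63 ± 0.24, adjusted p = 0.000402). Ndufa3 was at 32.7, 41.4 and 32.1 (Experiment 1), 191, 115 and 131 (Experiment 2, no Dox) and 119.9, 87.3 and 97.5 (Experiment 2, Dox). No library of Experiment 2 overlapped Experiment 1 for this accessory subunit of complex I (chr7:3617373-3620327, plus strand). Uqcr11, the smallest subunit of complex III, was at 108, 187 and 144, 579, 411 and 394 and 466, 324 and 341 in the same order and did not overlap either. The members that were lower in Experiment 2 were Sdhd (-1.42 ± 0.14, adjusted p = 2.23e-05), Sdhc (-0.78 ± 0.22, adjusted p = 0.0142), Dmac2l, a protein related to the coupling factor of the ATP synthase (-0.53 ± 0.15, adjusted p = 0.0166), and the complex I assembly factors Ndufaf5 (-0.51 ± 0.17, adjusted p = 0.0288) and Ndufaf4 (-0.44 ± 0.11, adjusted p = 0.00964). The mitochondrial members that were higher were mt-Nd2 (2.05 ± 0.33, adjusted p = 0.00063), mt-Cytb (1.50 ± 0.34, adjusted p = 0.00444), mt-Nd1 (1.16 ± 0.31, adjusted p = 0.0105), mt-Nd3 (0.86 ± 0.32, adjusted p = 0.0486) and mt-Nd4 (0.86 ± 0.25, adjusted p = 0.016).

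mt-Nd2 was at 1403, 2063 and 2124 (Experiment 1), 12006, 7437 and 4949 (Experiment 2, no Dox) and 7636, 5452 and 6117 (Experiment 2, Dox). Every library of Experiment 2 was at least 4949 and none of Experiment 1 exceeded 2124. By complex, 24 of 29 accessory subunits of complex I were higher and 0 lower, 4 of its 7 core subunits were higher, and in complex II 1 of 4 (Sdhb) was higher and 2 were lower. In complex III 5 of 8 nuclear subunits were higher, in complex IV 9 of 16 and in complex V 11 of 18. Without Dox, the nuclear median of Experiment 2 minus Experiment 1 was 1.06 at 0 h, 0.79 at 17 to 19 h and 0.36 at 30 h. By length it was 1.45, 0.98 and 0.19 for short, middle and long transcripts at 0 h, against 1.20, 0.65 and -0.12 for all nuclear genes. The members had 0.88, 0.87 and 0.69 at 17 to 19 h (all nuclear genes 0.68, 0.65 and -0.06), and at 30 h 0.75, 0.26 and 0.21 (0.49, 0.17 and 0.00), so the gap between short and long members was widest at 0 h.

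Within each library, the share of the nuclear members was also read by the mitochondrial share of the barcodes, and it did not move in 1 direction with it. In barcodes with 1% to 10% mitochondrial UMIs the nuclear members took 2.39, 2.48 and 2.43% of the UMIs outside mt- genes (Experiment 1), 3.13, 2.97 and 2.73% (Experiment 2, no Dox) and 3.24, 2.83 and 2.83% (Experiment 2, Dox). In those with 10% to 20% they took 2.58, 2.67 and 2.61%, 3.28, 3.17 and 2.85% and 3.42, 2.88 and 2.87%, which was higher in 9 of 9 libraries. Above 20% the share was 1.59, 2.44 and 2.36%, 2.35, 3.19 and 2.69% and 3.28, 2.68 and 2.8%, below the 10% to 20% class in 8 of 9 libraries, the exception being Experiment 2 at 19 h without Dox. These barcodes also held more Malat1, 22.3, 11.5 and 9.24% in Experiment 1 against 3.87, 4.59 and 4.23% in the class below it.

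Barcodes with under 1% mitochondrial UMIs are the ones a lower limit would remove. In Experiment 2 the nuclear members took 3.63, 3.65 and 2.95% of their UMIs outside mt- genes without Dox and 4.31, 3.33 and 3.09% with Dox, above the 1% to 10% class in each of these libraries, though only 18 and 19 barcodes stood behind the 0 h values. In Experiment 1 there were only 3 to 5 such barcodes per library, with 1.83, 2.7 and 3.05%. In Experiment 2 their Malat1 share was 0.198, 0.114 and 0.858% without Dox and 0.0824, 1.24 and 1.36% with Dox, below the 3.2, 2.78 and 2% and 2.92, 3.21 and 2.57% of the 1% to 10% class. Barcodes are not replicates, so no test was made across them.

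**Figure D5:**
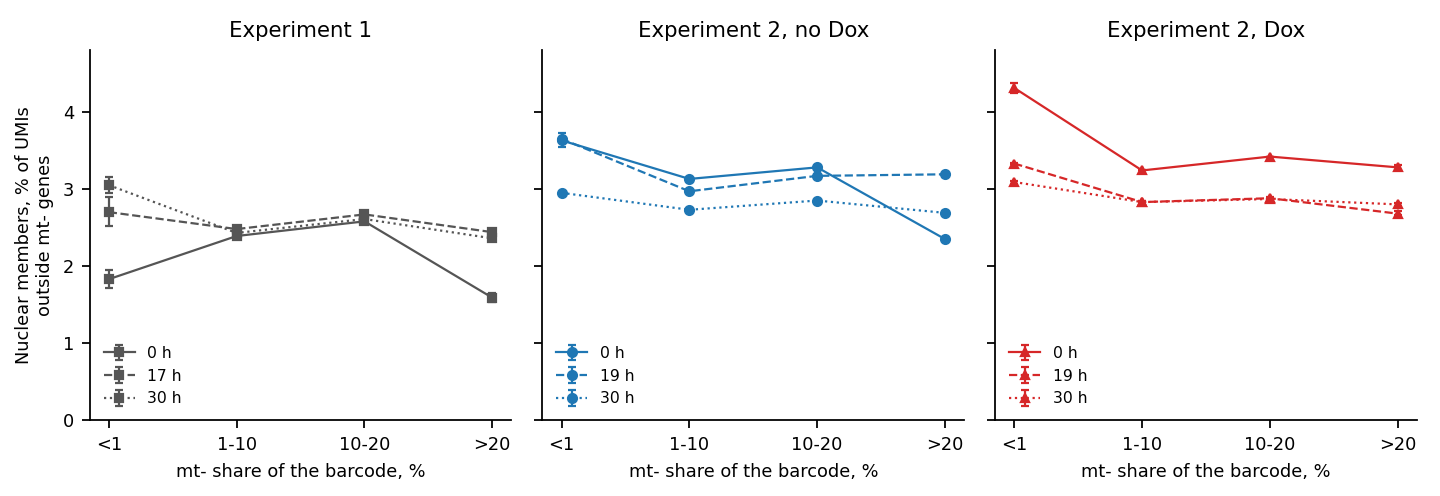
Share of the 96 nuclear members in the UMIs outside mt- genes (%), by the mitochondrial share of the barcode (%), for each library by arm and hours in SAG. Points are sums over the barcodes of a class and bars are 95% intervals (Wilson, counting error only). The 10% to 20% class lies above the 1% to 10% class in 9 of 9 libraries.

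Other mitochondrial genes were read by lists, tested in the same fits (edgeR, adjusted over all genes, directions with TMM). The counts below stand beside the shares of all genes tested. Of these, 2.79% rose and 4.97% fell at 30 h. With Dox 7.35% were higher and 6.75% lower, and 23.5% were higher and 23.2% lower in Experiment 2. Scaling by library size only and fits with a library left out are not given for the lists. Of each list the 2 genes of smallest p are named for SAG at 30 h and for Dox. Of 24 tested genes that copy, transcribe and process the mitochondrial genome, 0 rose and 3 fell at 30 h. With Dox 0 were higher and 1 was lower, and 3 were higher and 9 were lower in Experiment 2. The 2 were Mterf3, which limits mitochondrial transcription (-0.84 ± 0.17, adjusted p = 0.0278), and Ssbp1, which binds single-stranded mitochondrial DNA (-0.87 ± 0.20, adjusted p = 0.0336), for SAG, and Grsf1 of the RNA granules (-0.38 ± 0.11, adjusted p = 0.0491) and Tfb1m, which modifies mitochondrial ribosomal RNA (-0.49 ± 0.15, adjusted p = 0.0526, not passing), for Dox. Of 78 tested proteins of the mitochondrial ribosome, 0 rose and 3 fell at 30 h. With Dox 0 were higher and 17 were lower, and 42 were higher and 2 were lower in Experiment 2. The 2 were Mrps28 (-1.02 ± 0.21, adjusted p = 0.0302) and Mrpl50 (-0.66 ± 0.15, adjusted p = 0.0367) for SAG and Mrpl49 (-0.78 ± 0.17, adjusted p = 0.0157) and Mrps30 (-0.56 ± 0.12, adjusted p = 0.017) for Dox. Of 40 tested (of 41 listed) assembly factors that the symbols above do not cover, 0 rose and 5 fell at 30 h. With Dox 0 were higher and 3 were lower, and 13 were higher and 4 were lower in Experiment 2. The 2 were Coa6, a factor for complex IV (-0.86 ± 0.19, adjusted p = 0.0319), and Sdhaf4, a factor for complex II (-0.72 ± 0.16, adjusted p = 0.032), for SAG, and Higd1a (-0.87 ± 0.19, adjusted p = 0.014) and Cox18, which inserts a subunit of complex IV into the membrane (-0.61 ± 0.15, adjusted p = 0.0225), for Dox.

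The shares of all genes given for the lists above stand beside the following counts too. Of 19 tested (of 20 listed) electron carriers and enzymes of coenzyme Q synthesis, 2 rose and 0 fell at 30 h. With Dox 2 were higher and 2 were lower, and 2 were higher and 4 were lower in Experiment 2. Coq8b (0.88 ± 0.17, adjusted p = 0.0241) and Pdss2 (0.53 ± 0.13, adjusted p = 0.0416) for SAG, and Coq8a (0.77 ± 0.18, adjusted p = 0.0186) and Coq3 (-0.54 ± 0.13, adjusted p = 0.0224) for Dox, all belong to coenzyme Q synthesis. Of 13 tested (of 14 listed) regulators of mitochondrial biogenesis, 1 rose and 1 fell at 30 h. With Dox 1 was higher and 1 was lower, and 1 was higher and 7 were lower in Experiment 2. For SAG the 2 were Myc (-0.66 ± 0.13, adjusted p = 0.0246) and the coactivator Ppargc1b (0.82 ± 0.20, adjusted p = 0.0401). For Dox the 2 were Myc again (-1.05 ± 0.13, adjusted p = 0.000902) and Ppargc1a, a coactivator that drives mitochondrial biogenesis (1.55 ± 0.12, adjusted p = 0.000123), which was also lower in Experiment 2 (-2.47 ± 0.13, adjusted p = 2.91e-07). Of 24 tested genes of the citric acid cycle and pyruvate dehydrogenase, 0 rose and 1 fell at 30 h. With Dox 1 was higher and 2 were lower, and 6 were higher and 6 were lower in Experiment 2. Pdk4, a kinase that shuts off pyruvate dehydrogenase, had -1.25 ± 0.23, adjusted p = 0.0219 and Mpc1, of the pyruvate carrier, -0.57 ± 0.17, adjusted p = 0.0616, not passing, for SAG. For Dox the 2 were the related kinases Pdk2 (0.65 ± 0.15, adjusted p = 0.0204) and Pdk1 (-0.53 ± 0.12, adjusted p = 0.0205).

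For the last lists the same shares of all genes apply. Of 25 tested (of 27 listed) genes of mitochondrial protein import, 0 rose and 2 fell at 30 h. With Dox 0 were higher and 3 were lower, and 9 were higher and 2 were lower in Experiment 2. The 2 were Timm21 (-0.78 ± 0.16, adjusted p = 0.0291) and Timmdc1, also an assembly factor of complex I (-0.67 ± 0.17, adjusted p = 0.0425), for SAG, and Timm8a1 (-1.01 ± 0.18, adjusted p = 0.00705) and Timm50 (-0.67 ± 0.14, adjusted p = 0.0117) for Dox. Of 7 tested (of 10 listed) adenine nucleotide carriers, uncoupling proteins and outer membrane channels, 0 rose and 0 fell at 30 h. With Dox 0 were higher and 2 were lower, and 2 were higher and 3 were lower in Experiment 2. For SAG the carrier Slc25a4 (-0.64 ± 0.24, adjusted p = 0.0964) and the channel Vdac3 (-0.43 ± 0.16, adjusted p = 0.103) did not pass, with 3 of the 7 at an unadjusted p under 0.05. For Dox the 2 were the channels Vdac2 (-0.63 ± 0.16, adjusted p = 0.0261) and Vdac1 (-0.49 ± 0.14, adjusted p = 0.0394).

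A few of these genes, named after their values were seen, differed between the experiments by more than any member did. Timm23 was at 0.781, 0.868 and 1.03 CPM in Experiment 1 and 65.1, 83.7 and 63.3 in Experiment 2 without Dox, Mrpl53 at 0.58, 0.759 and 0.729 and 132, 114 and 64.6, and Tomm6 at 6.94, 8.6 and 7.77 and 301, 237 and 212. The 2 gene lists hold these genes under the same IDs. The part of the gene models in such differences, and in those of the members between experiments, was not tested.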

How the data were processed

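UMI counts per gene and barcode were used as the authors deposited them for 9 libraries of 1 cell line, made with the 10x Genomics 3' kit per the labels' protocols. The matrices were written by software version 3.1.0 (Experiment 1) and 6.0.1 (Experiment 2), per the file headers, and Cell Ranger and mm10 are named in the submitters' processing notes. Filters applied before deposit, and whether introns or strand were used, are not given in the sources used here. Barcodes with at least 5000 UMIs were kept, no doublets were called, and counts were summed per library over the 30407 features that both gene lists share by ID.

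Sums were tested with the quasi-likelihood F test of edgeR 4.0.16 (R 4.3.3, limma 3.58.1), with filterByExpr and TMM scaling, terms for SAG time, Dox and experiment (4 residual degrees of freedom), and Benjamini-Hochberg adjustment over all genes tested, called at an adjusted p under 0.05. Values with ± are log2 differences from the fit ± SE, where the SE is the absolute difference divided by the square root of F. Differences between single libraries, and medians of these, use TMM-scaled log2 CPM with a prior count of 2. Libraries of the same experiment number in the labels deviated together (correlations between times of 0.7, 0.79 and 0.8 over 14620 genes), and the experiment is the block in the fit. Responses were compared between Dox states in a fit of conditions, and between experiments in one with a time effect for each experiment (2 residual degrees of freedom), which was chosen after seeing the data, as was the split by transcript length.

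Alternatives were a limit of 10% or 1% to 10% mitochondrial UMIs, at least 10000 UMIs per barcode, RLE or library-size scaling, a filter at 10 UMIs, mitochondrial features left out, DESeq2 1.42.0, other terms, and each library left out. Named were all mitochondrial members, the 2 most abundant nuclear subunits of each complex, tissue isoforms with their common forms, the 5 called members with the largest rise and fall per comparison (the 3 of smallest p in a direction with no call), and, of each further list, the 2 of smallest p, printed for SAG at 30 h and Dox. A further gene that this rule takes, for 17 to 19 h in SAG, is not reported here. The members and lists were chosen with earlier results of these data known. Gene positions and transcript lengths are from GENCODE vM21 on GRCm38. The length is that of the transcript marked as principal there, the longest where there are several. Counting used Python 3.11.15, numpy 2.4.6, pandas 2.3.3 and scipy 1.17.1. Intervals and limits cover counting error only.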

Additional observations from a re-analysis of the deposited data

Results flagged for a closer look

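The response to SAG differed between the 2 experiments for named members (edgeR quasi-likelihood F test of the difference, adjusted over all genes; log2, Experiment 2 minus Experiment 1). At 30 h the mitochondrial members were mt-Nd6 (-5.08), mt-Atp8 (-3.99), mt-Nd4l (-2.95), mt-Nd5 (-2.12), mt-Cytb (-1.43), mt-Nd2 (-1.37) and mt-Nd1 (-1.30). The nuclear members at 30 h were Cox7b2 (-2.30), Cox7c (-1.43), Ndufa5 (-1.34), Ndufb2 (-1.16), Atp5e (-1.12) and, with the opposite sign, Sdhc (1.21). At 17 to 19 h they were mt-Atp8 (-3.88), mt-Nd6 (-3.60), mt-Nd4l (-2.93), mt-Nd5 (-1.89), mt-Nd3 (-1.76), Atp5k (-1.65), Cox7c (-1.55), Ndufa1 (-1.54), Ndufa5 (-1.53), Atp5e (-1.46) and Sdhc (0.94). Each difference rests on 1 library per time in Experiment 1, which adds nothing to the spread used in the test.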

How the results depend on the processing

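Beside each number of members called, the share of all genes called is given in parentheses, except where said. At 30 h in SAG, 6 members were called (7.76% of all genes). The count was 17 with DESeq2 (15.3%), 3 with the SAG effect taken from the libraries without Dox (1.73%), 0 with library-size scaling (0.492%), 0 with no replicate block (no experiment term; 0%), and 0 to 69 with a library left out (0.0141 to 41.3%). At 17 to 19 h it was 0, and 0 to 35 with a library left out (0 to 14.8%); between 17 to 19 h and 30 h it was 0, and 0 to 1 (0 to 0.227%). For Dox, 2 members were called (14.1%), but 17 with DESeq2 (19.1%), 5 with RLE scaling (14.6%), 1 with the filter at 10 UMIs (12.3%), 0 with a limit of 10% or of 1% to 10% mitochondrial UMIs (10.5% and 10.6%), 0 with library-size scaling (22.2%), 0 with no replicate block (0.52%), and 0 to 46 with a library left out (2.16 to 32%). For the 30 h response with Dox minus without it was 0 (0.119%), but 1 (mt-Nd6) with the filter at 10 UMIs (0.155%), and 0 to 3 with a library left out (0 to 1.31%). For the 30 h response of Experiment 2 minus Experiment 1, 29 were called (12.9%), but 46 with the 10% limit (17%) and 6 to 76 with a library left out (3.19 to 29.8%), and at 17 to 19 h 21 were called (4.81%), and 8 to 67 (1.94 to 19.3%). Leaving out a library also leaves fewer samples and fewer genes tested; beyond that the cause was not tested. The comparison of experiments called 67 members (46.7%), and 49 to 70 with a library left out. Of these, 49 to 64 were among the 67 with the same direction, and the share of all genes in these fits is not given here. With library-size scaling 57 were called, 45 of them among the 67, beside 10.7% of all genes higher and 40.9% lower. The median mitochondrial share of the 9 libraries was 9.39%, and 7.04% and 7.05% under the 2 limits, which remove barcodes by that share. Of the counts of members called and the shares of UMIs under the alternatives, 46 moved and 100 stayed the same. A count moved when it changed by more than a set factor, or to or from 0. A share moved when it changed by its spread or more. Of 741 further values under the alternatives, nearly all of members named for being called, 595 stayed the same. For the members this means the same direction and side of the threshold. The 595 include 2 shares of barcodes that stayed within their spread on thinning. A further 146 kept the direction but did not pass, and 0 reversed.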
